A study of Mus musculus with 23 samples.

Results

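Cftr encodes the cystic fibrosis transmembrane conductance regulator, the gene mutated in cystic fibrosis. It was measured by 2 probe sets, every one of the 45037 tested that carried the single symbol Cftr, and it was 1 of 18193 genes with a probe set of 1 symbol. RNA of the whole right lung was hybridised to 23 arrays, taken from mice of 2 inbred strains, BALB/c (BALB) and C57BL/6 (B6), with the genotype CF-/- (CF) or CF+/+ (control), in females and males. Each of the 8 groups had 3 arrays, except B6 CF males, which had 2. The labels give no age and no description of the targeted allele. They do not state that replicate arrays are of different mice, so the spread behind each p-value is that of these samples and could be technical. All values below are log2 signals as deposited, on arrays whose medians lay between 4.56 and 4.64.

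CFTR is an ATP-gated chloride and bicarbonate channel of the apical membrane of epithelia and the only member of the ABC transporter superfamily known to work as an ion channel. It opens after phosphorylation by protein kinase A, and through it airway, gut and duct epithelia move anions and, with them, water onto their surface. Mouse lung is known for low Cftr expression, and in mice the intestine, where Cftr is abundant, is the organ most affected by its loss. Markers of lung tissue were high on every array: the surfactant gene Sftpc read 13.55 to 13.75, the club cell gene Scgb1a1 13.57 to 13.75 and the type 1 cell gene Ager 12.93 to 13.19. In whole lung RNA, fewer cells of a type and less RNA per cell cannot be told apart.

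The start of the Cftr gene is shown because the RNA level is what these arrays measured, and because the reference genome is that of C57BL/6J, the strain in which control lungs gave the low reading. The RefSeq window of GRCm38.p6, 250 bases before to 50 after the gene's start on the plus strand at chr6:18170437-18170736, reads as follows, with capitals for GGGCGG (the GC box), CCAAT read on either strand, and TGANNTCA, the outer bases of a cyclic AMP response element.
Cftr: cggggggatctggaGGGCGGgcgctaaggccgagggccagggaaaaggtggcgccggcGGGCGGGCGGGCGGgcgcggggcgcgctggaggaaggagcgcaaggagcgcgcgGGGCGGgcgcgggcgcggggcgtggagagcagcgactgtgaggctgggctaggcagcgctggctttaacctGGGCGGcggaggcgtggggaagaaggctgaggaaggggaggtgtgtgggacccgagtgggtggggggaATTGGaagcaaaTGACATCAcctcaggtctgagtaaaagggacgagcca
The window was 71.3% G and C, against a median of 52.7% over 32851 promoter windows of the same length, and 92.2% of them were lower. It held GGGCGG 6 times counting overlaps (present in 35.7% of all windows), CCAAT once on the minus strand (37.4%) and TGANNTCA once (14.1%). It held no TATAAA (13.6% of windows) and no full TGACGTCA (1.79%), searched on both strands. These letter matches are descriptions of the B6 reference, and no BALB/c sequence was used here.

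Cftr was high in 1 of the 4 combinations of strain and genotype, the BALB controls. By the brighter of the 2 probe sets, BALB CF females read 3.49, 4.11 and 3.69, against 5.77, 5.85 and 5.49 in BALB control females. BALB CF males read 3.87, 4.42 and 4.39, against 5.65, 5.82 and 5.40 in BALB control males. The 6 BALB control arrays were the 6 highest of all 23, and the lowest of them lay 0.98 above the highest BALB CF array. B6 CF females read 3.98, 3.87 and 4.31, against 4.37, 4.21 and 4.04 in B6 control females. B6 CF males read 3.86 and 4.29, against 4.14, 4.58 and 4.36 in B6 control males. The B6 genotypes overlapped in both sexes, and the B6 control arrays (4.04 to 4.58) also overlapped the BALB CF arrays (3.49 to 4.42).

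**Figure D1:**
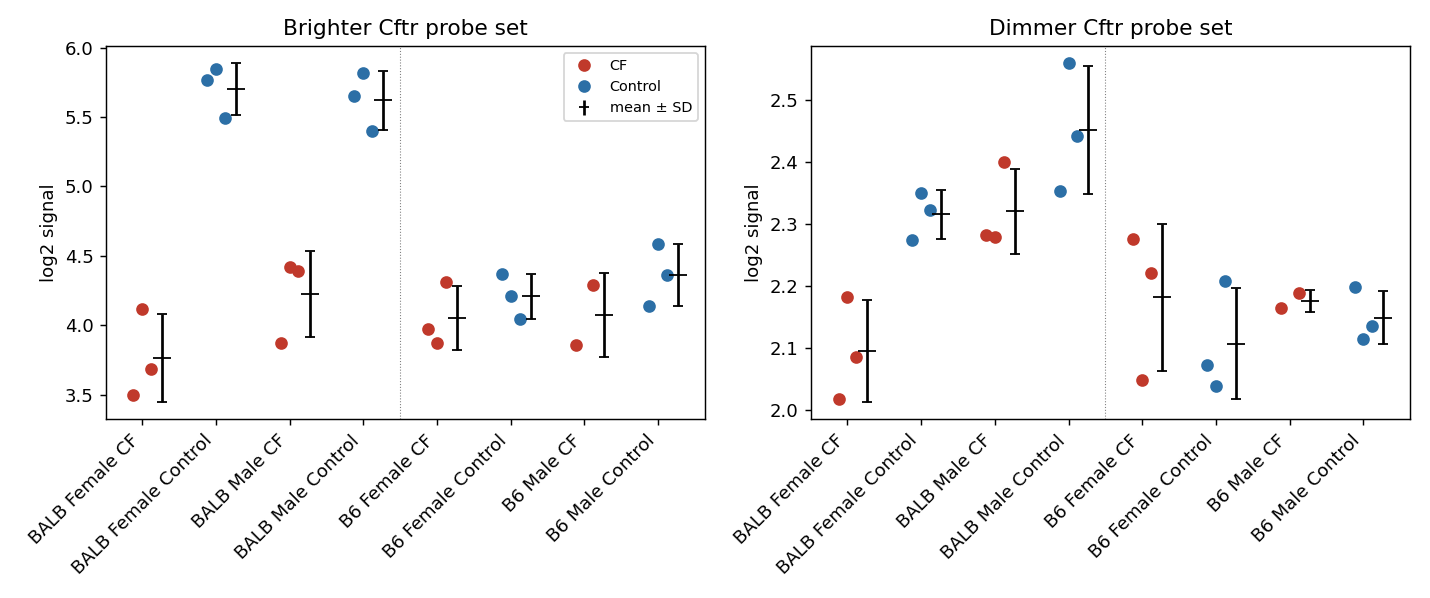
Log2 signal of Cftr on each of the 23 arrays by the brighter (left) and dimmer (right) probe set, in the 8 groups of strain, sex and genotype. Points are arrays, and the bars beside them are the mean and SD of the group (n = 3, n = 2 for B6 CF males). By the brighter probe set the BALB control arrays lie between 5.40 and 5.85 and all 17 other arrays between 3.49 and 4.58.

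Ordered by mean, the 2 highest groups were BALB control females at 5.70 ± 0.19 and BALB control males at 5.62 ± 0.21 (SD, n = 3 each), 0.08 apart and with overlapping arrays. A gap of 1.26 followed, the largest in the order, and the arrays on its 2 sides did not overlap. Below it came B6 control males at 4.36 ± 0.22, BALB CF males at 4.22 ± 0.31 and B6 control females at 4.21 ± 0.16 (SD, n = 3 each). The lowest were B6 CF males at 4.07 ± 0.30 (SD, n = 2), B6 CF females at 4.05 ± 0.23 and BALB CF females at 3.76 ± 0.32 (SD, n = 3 each). Neighbours within these 6 groups differed by 0.02 to 0.29, less than the larger SD of each pair.

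The genotype comparison was made within each strain, averaging the female and the male effect. In BALB, Cftr averaged 3.99 ± 0.38 in CF lungs and 5.66 ± 0.18 in control lungs (SD, n = 6 each), a difference of -1.67 (SE 0.13, 95% interval -1.93 to -1.40, limma adjusted p = 6.44e-07). The BALB CF readings lay under the array medians of 4.56 to 4.64. Whether the probe set stood above background there was not analysed here, so no fold is given. By p-value Cftr ranked first of the 45037 probe sets in this comparison, in which 4.92% passed an adjusted p of 0.05. By size of the difference it ranked 60. The exact two-sided permutation p was 0.00216, the smallest that 6 against 6 arrays can give. Arrays of BALB CF and control lungs did not overlap, CF below control, for 0.853% of all probe sets.

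In B6, Cftr averaged 4.06 ± 0.22 in CF lungs (SD, n = 5) and 4.28 ± 0.19 in control lungs (SD, n = 6). The difference of -0.22 (SE 0.13, limma adjusted p = 0.43) was not past the threshold, which 4.71% of probe sets passed. Its 95% interval, -0.50 to 0.06, holds 0 as well as a CF signal up to 0.50 lower on the log2 scale. The exact permutation p was 0.108. A fall of the BALB size lies outside that interval, but the B6 control mean was itself under the array medians. Whether the probe set could read much lower there was not analysed. The interval and the strain difference therefore describe the signal, and do not tell how much Cftr RNA was lost in B6. The effect in BALB minus that in B6 was -1.45 (SE 0.18, 95% interval -1.83 to -1.06, limma adjusted p = 0.000258), a comparison in which Cftr ranked 21 by p-value and 2.54% of probe sets passed. On these arrays, then, the brighter probe set separated the genotypes in BALB and did not separate them in B6.

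Set against B6 within each genotype, the BALB signal was higher in controls, and a difference was not shown in CF lungs. BALB controls exceeded B6 controls by 1.38 (SE 0.13, 95% interval 1.11 to 1.64, limma adjusted p = 4.17e-08), in a comparison where 15.6% of probe sets passed. It held in females (1.49, SE 0.18, adjusted p = 4.22e-06), where 8.21% of probe sets passed, and in males (1.26, SE 0.18, adjusted p = 4.19e-05), where 9.45% did. The BALB control arrays all lay above the B6 control arrays, as did those of 3.33% of all probe sets. BALB CF lungs differed from B6 CF lungs by -0.07 (SE 0.13, 95% interval -0.35 to 0.21, limma adjusted p = 0.794), and here 18.2% of probe sets passed.

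**Figure D2:**
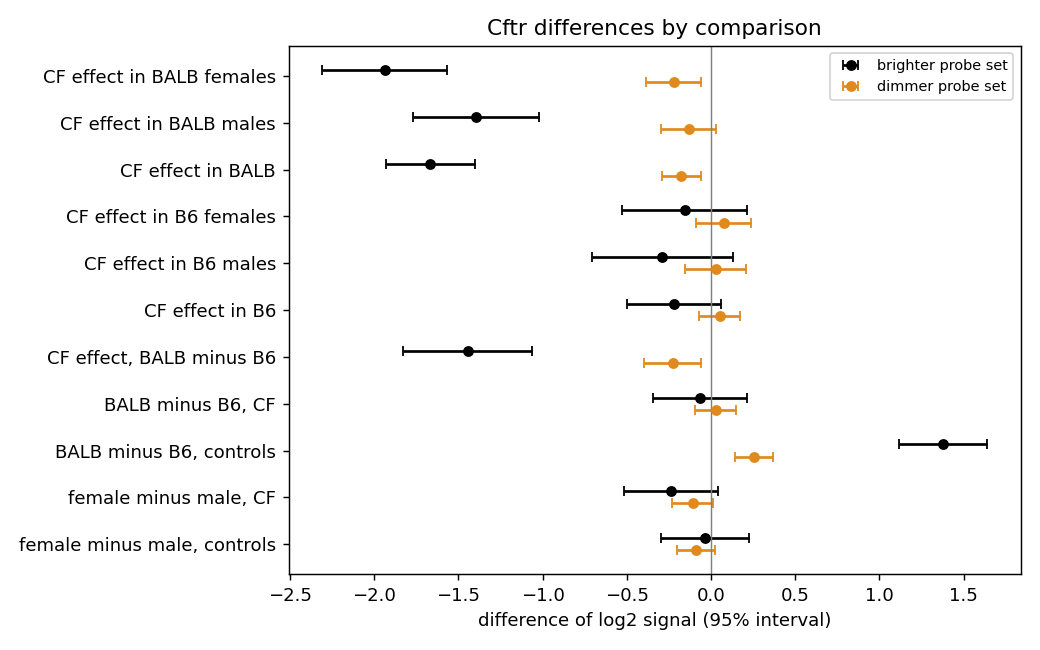
Differences of the Cftr log2 signal with 95% intervals from the limma fit, for the brighter (black) and dimmer (orange) probe set. For the brighter probe set the intervals exclude 0 for the CF effects in BALB, the strain difference of the effect and BALB minus B6 controls, and include 0 for the CF effects in B6, BALB minus B6 CF lungs and females minus males within each genotype. The difference of the BALB effect between the sexes is not plotted.

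No difference between the sexes passed the threshold. Control females minus control males was -0.03 (SE 0.13, 95% interval -0.30 to 0.23, limma adjusted p = 0.932), and CF females minus CF males -0.24 (SE 0.13, 95% interval -0.52 to 0.04, adjusted p = 0.627). In BALB the CF effect was -1.94 in females (SE 0.18, limma adjusted p = 2.3e-05) and -1.40 in males (SE 0.18, adjusted p = 0.000201), in comparisons that 1.19% and 1.93% of probe sets passed. The difference between them, -0.54 (SE 0.25, 95% interval -1.07 to -0.02), did not pass after adjustment (adjusted p = 0.506, unadjusted 0.0437), as for all but 0.0178% of probe sets. In B6 the effect was -0.16 in females (SE 0.18, adjusted p = 0.888) and -0.29 in males (SE 0.20, adjusted p = 0.478).

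The dimmer probe set read near the bottom of the deposited range (1.79 to 13.82) on every array and showed only part of this pattern. BALB CF females read 2.02, 2.18 and 2.09, against 2.27, 2.35 and 2.32 in BALB control females. BALB CF males read 2.28, 2.28 and 2.40, against 2.35, 2.56 and 2.44 in BALB control males. In BALB the female arrays did not overlap between genotypes and the male arrays did. For 3 against 3 arrays the smallest exact permutation p is 0.1, and the share of all probe sets so separated was not counted. B6 CF lungs read 2.05 to 2.27 and B6 control lungs 2.04 to 2.21, overlapping throughout.

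By this probe set BALB CF lungs were 0.18 below BALB controls, which did not pass (difference -0.18, SE 0.06, limma adjusted p = 0.0725, exact permutation p = 0.0411). The B6 effect was 0.05 (SE 0.06, adjusted p = 0.742) and the strain difference of the effect -0.23 (SE 0.08, adjusted p = 0.15). BALB controls again exceeded B6 controls, by 0.26 (SE 0.06, limma adjusted p = 0.00216), with no overlap between 2.27 to 2.56 and 2.04 to 2.21. The 2 probe sets correlated at a Pearson r of 0.71 over the 23 arrays and at 0.32 over the 17 arrays other than BALB controls. Which part of the transcript each probe set covers was not analysed here.

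Intestinal markers were also high on BALB control arrays. Of 22 measured gut markers 16 were higher in BALB than in B6 controls, with a median difference of 0.74 against 0.02 over all 18193 genes, of which 8.64% were higher by 1 probe set per gene. In BALB, 12 of the 22 were lower in CF lungs than in controls, with a median difference of -0.84 against -0.0056 over all genes (2.66% lower). Zg16, a goblet cell secretory protein, differed by -2.86 (SE 0.48, limma adjusted p = 0.00117), Fabp2, the intestinal fatty acid-binding protein, by -2.84 (SE 0.51, adjusted p = 0.00206), and the gut mucin Muc2 by -2.35 (SE 0.46, adjusted p = 0.00451). In B6 none of the 22 passed in limma, nor did any at an unadjusted p under 0.05 (0 genes, beside 3394 of all 18193). The intestinal transcription factor Cdx2 did not pass in BALB (-0.13, adjusted p = 0.488).

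The gut score of an array, the mean deviation of these markers from their medians, ran from -0.15 to 0.83 in BALB CF lungs, from 0.29 to 1.81 in BALB controls, from -0.14 to -0.02 in B6 CF lungs and from -0.15 to 1.20 in B6 controls. Over the 23 arrays Cftr and the gut score correlated at a Pearson r of 0.69 and a Spearman rho of 0.44, and these arrays share their groups. This was the highest r of the 10 cell marker lists, but not the largest in size. The ionocyte score had the lowest r, -0.72 (rho -0.63). Within the 6 BALB control arrays the r of Cftr with the gut score was 0.12 (rho -0.20), and within the 17 other arrays -0.15 (rho -0.20). The highest r within the 6 was that of alveolar type 2 cell markers, 0.86 (rho 0.83), which gave 0.15 within the 17. Within the 17 the highest was that of airway secretory cell markers, 0.56 (rho 0.40), which gave -0.35 within the 6. None of these correlations was tested. Among single arrays, BALB control female 2 had the lowest gut score of its strain's controls, 0.29, and the highest Cftr of all arrays, 5.85. BALB control male 3 had the next lowest gut score, 0.47, and the lowest Cftr of the BALB controls, 5.40. B6 control female 1 had a gut score of 1.20 and a Cftr of 4.37, within the range of the other B6 controls. BALB CF female 1 had a gut score of 0.83 and the lowest Cftr of all, 3.49.

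With the gut score as a covariate the BALB effect on Cftr was -1.67 (limma adjusted p = 0.00015) and BALB minus B6 controls 1.38 (adjusted p = 1.26e-05). Leaving out the 6 arrays with a gut score above 0.5, a choice made after the scores were seen, gave -1.56 (adjusted p = 0.000579) and 1.38 (adjusted p = 8.72e-05), with 2 of the 6 BALB control arrays remaining. Their gut scores, 0.29 and 0.47, were still above those of the other arrays kept, which were at most -0.02. The part of gut transcripts in the Cftr difference was not tested beyond these values. Squamous epithelium and skeletal muscle markers stood out on the 3 BALB CF female arrays (scores 1.78 to 3.70 and 1.36 to 2.94) and on B6 control female 1 and male 3. On the BALB CF male arrays these scores were -0.17 to -0.08 and -0.08 to -0.01. With the gut, squamous and muscle scores together as covariates, the BALB effect on Cftr was -1.74 (limma adjusted p = 0.00191). BALB minus B6 controls was then 1.59 (adjusted p = 0.00762) and the strain difference of the effect -1.55 (adjusted p = 0.0446). The part of these tissues in the Cftr difference was not tested beyond these values.

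**Figure D3:**
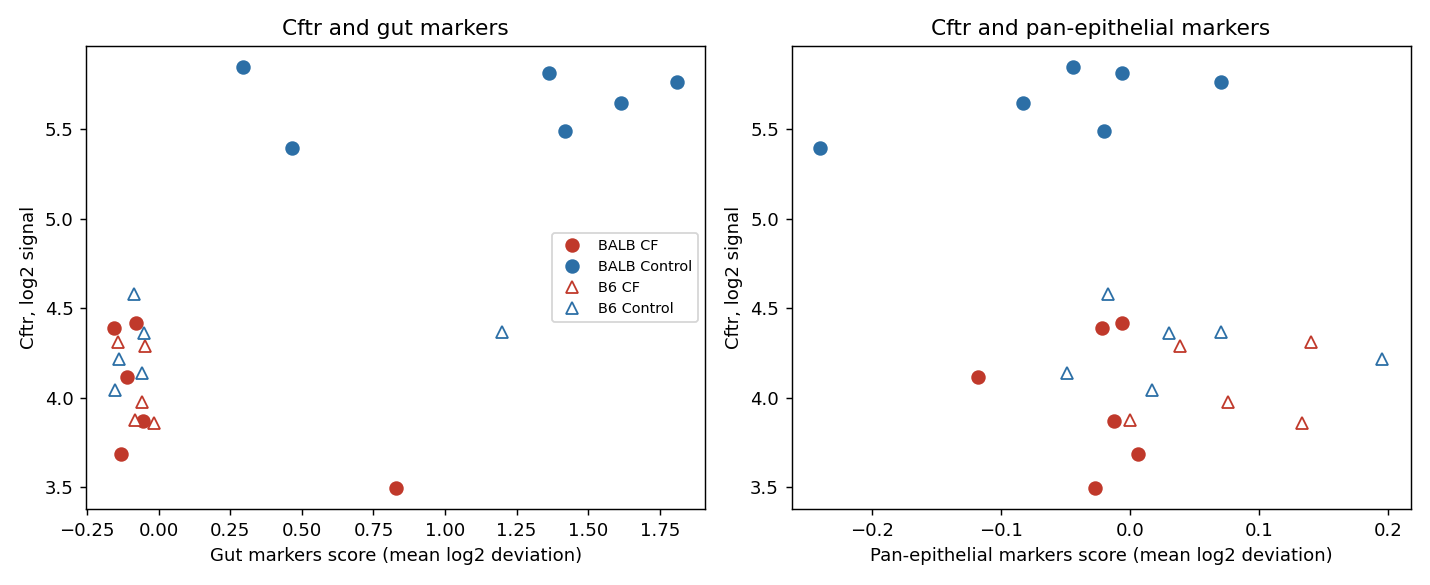
Cftr log2 signal by the brighter probe set against the score of 22 gut markers (left) and of 20 pan-epithelial markers (right) on each array. Circles are BALB and triangles B6, red CF and blue control. BALB controls lie at gut scores from 0.29 to 1.81. Of the other arrays, only BALB CF female 1 (gut score 0.83, Cftr 3.49) and B6 control female 1 (1.20, 4.37) lie in that range. Gut score and group are thus largely confounded.

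Markers of the lung's own epithelia were counted by list, in a comparison where 5.53% of all genes passed for the CF effect in BALB. Over all 18193 genes, 3515 in BALB and 3394 in B6 had an unadjusted limma p under 0.05 for the CF effect. The unadjusted counts of the lists below stand beside these. Of 20 pan-epithelial genes 0 passed for the CF effect in either strain in limma (6 in BALB and 1 in B6 at an unadjusted p under 0.05), and 1 was lower in BALB than in B6 controls (Prss8, a channel-activating protease, -0.62). The pan-epithelial score lay between -0.24 and 0.07 in BALB controls and between -0.05 and 0.20 in B6 controls. Airway genes were lower, not higher, in BALB controls: 11 of 20 secretory cell markers and 11 of 13 ciliated cell markers, against 9.58% of all genes. For the CF effect 0 of the 20 secretory markers passed in limma in either strain (3 in BALB and 2 in B6 unadjusted), where 5.53% of all genes in BALB and 5.43% in B6 did. Of the ciliated markers 1 was lower in BALB CF lungs, Foxj1, the transcription factor of motile cilia (-0.38, SE 0.10, adjusted p = 0.0286), and 0 passed in B6 (1 unadjusted).

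In the alveolar lining, 0 of 16 type 2 cell markers passed in BALB in limma (2 unadjusted) and 2 were lower in B6 CF lungs (1.5% of all genes), the complement gene Hc (-0.71) and the chemokine gene Cxcl15 (-0.25). Of 14 type 1 cell markers 2 were lower in BALB CF lungs (2.66% of all genes), the keratin gene Krt7 (-0.30) and Rtkn2 (-0.30), and 2 in B6 CF lungs, Igfbp2 (-0.68) and Akap5 (-0.41). In B6, 7 of the 16 type 2 markers (median -0.14) and 9 of the 14 type 1 markers (median -0.15) had an unadjusted p under 0.05. So had 3394 of all 18193 genes. The type 1 score ran from -0.19 to -0.04 in B6 CF lungs and from 0.06 to 0.11 in B6 controls. In BALB it ran from -0.17 to 0.14 in CF lungs and from -0.11 to 0.14 in controls (5 of 14 unadjusted). Between controls, 5 of the 16 type 2 markers were lower in BALB and 0 higher, where 9.58% of all genes were lower and 8.64% higher. Of the 14 type 1 markers 2 were lower and 1 higher, Krt7 (0.30, SE 0.06, limma adjusted p = 0.00172), which thus passed in both comparisons in the same direction as Cftr. Markers of pancreatic acini, another tissue whose ducts are rich in Cftr, did not pass in either strain (0 of 10, and 0 unadjusted).

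Ionocytes are rare airway cells in which Cftr is especially abundant. Foxi1, the transcription factor that specifies them, read 2.92 to 3.64 in BALB CF lungs and 3.07 to 3.39 in BALB controls, and 3.11 to 3.30 in B6 CF lungs and 2.92 to 3.24 in B6 controls. Ascl3, another of their transcription factors, read 3.96 to 4.37 in BALB CF lungs and 4.02 to 4.26 in BALB controls. Both overlapped between genotypes. These readings lay under the array medians of 4.56 to 4.64, and whether they stood above background was not analysed. Of the 8 measured markers beside Cftr, 4 were lower in BALB than in B6 controls (9.58% of all genes): Atp6v1c2, a proton pump subunit (-0.69, SE 0.07, limma adjusted p = 1.39e-07), Stap1 (-0.50), Pparg (-0.38) and Tfcp2l1 (-0.27). Stap1, an adaptor also known from B cells, was the 1 marker higher in BALB CF lungs (0.65, SE 0.12, adjusted p = 0.00206), as were 2.87% of all genes.

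Relatives and partners of the channel were examined by lists. Among 10 other members of ABC subfamily C, the family of Cftr, 0 passed for the CF effect in limma in either strain (1 in each unadjusted), where 5.53% of all genes in BALB and 5.43% in B6 did, and the differences ran from -0.18 to 0.11 in BALB. Between controls 3 of the 10 were lower in BALB (9.58% of all genes): Abcc1, a glutathione conjugate exporter (-0.57, SE 0.07, limma adjusted p = 4.63e-06), Abcc5, a cyclic nucleotide exporter (-0.31), and Abcc3, an organic anion exporter (-0.21). Of the 3 epithelial sodium channel subunits, which absorb the salt that CFTR-driven secretion opposes, Scnn1a was lower in BALB CF lungs (-0.30, SE 0.08, adjusted p = 0.0403), as Cftr was. In B6 it differed by 0.26 (SE 0.09, adjusted p = 0.0975), and the effects differed between strains (-0.55, SE 0.12, adjusted p = 0.0156), as those of 2.23% of all genes did. Scnn1a was also higher in BALB than in B6 controls (0.42, SE 0.08, adjusted p = 0.00089).

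Of 19 other anion secretion genes 0 passed for the CF effect in BALB in limma. At an unadjusted p under 0.05 there were 9 of the 19, beside 3515 of all 18193 genes. In B6, 1 was lower, as were 1.5% of all genes: the calcium-activated chloride channel Ano1 (-0.30, SE 0.07, limma adjusted p = 0.0164). In BALB, Ano1 differed by -0.22 (adjusted p = 0.0531). Among 18 scaffold and traffic genes, Pdzk1, a PDZ protein that binds the CFTR tail, was lower in BALB CF lungs (-0.29, SE 0.08, adjusted p = 0.0459). So were 2.66% of all genes. The kinase gene Sgk1, which favours sodium channel and CFTR surface levels, was higher in B6 CF lungs (0.37, SE 0.06, adjusted p = 0.00163), where 3.92% of all genes were. In BALB its means lay the other way, 9.53 in CF lungs (9.36 to 9.65) and 9.68 in controls (9.44 to 9.86), with overlapping arrays. The main CFTR scaffold Slc9a3r1 did not pass in BALB (0.09, adjusted p = 0.512).

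Folding and degradation genes were lower in 5 of 19 in BALB CF lungs (2.66% of all genes) and in 4 of 19 in B6 CF lungs (1.5%), with none higher and medians of -0.10 and -0.06. In BALB the lowest p-values were those of the co-chaperones Dnajb2 (-0.32, SE 0.07, limma adjusted p = 0.0106), Ahsa1, which stimulates the Hsp90 ATPase (-0.44, SE 0.10, adjusted p = 0.015), and Dnaja1 (-0.88, SE 0.21, adjusted p = 0.0169). In B6 they were Hsp90aa1 (-0.67, adjusted p = 0.00107) and Ahsa1 (-0.48, adjusted p = 0.0128).

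In B6 the effect on some of these genes differed between the sexes. For 4 of the 19 the B6 effect, female minus male, was positive and passed (0.715% of all genes): Hspa8, Hsp90aa1, Ahsa1 and Dnajb2. Hsp90aa1, an Hsp90 chaperone gene, gave -0.10 in B6 females (SE 0.15, limma adjusted p = 0.924) and -1.24 in B6 males (SE 0.16, adjusted p = 0.000141), where the CF group had 2 arrays. Ahsa1 gave 0.06 in B6 females (adjusted p = 0.96) and -1.01 in B6 males (adjusted p = 0.000687). Between control sexes, 5 of the 19 were lower in females than in males (0.912% of all genes), down to -1.46 for Dnaja1.

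Of 20 cyclic AMP pathway genes 1 was higher in BALB CF lungs (2.87% of all genes) and 1 in B6 CF lungs (3.92%). In both strains it was the prostaglandin E2 receptor Ptger4 (BALB 0.32, limma adjusted p = 0.0176, and B6 0.54, adjusted p = 0.000427). The phosphodiesterase Pde4b was the 1 gene lower in BALB CF lungs (-0.66, SE 0.12, adjusted p = 0.00266), as were 2.66% of all genes. At an unadjusted p under 0.05 there were 8 of the 20 in BALB and 3 in B6, beside 3515 and 3394 of all 18193 genes.

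Of 20 transcription factors of airway and Cftr expression, 3 were lower in BALB CF lungs (2.66% of all genes) and 0 passed in B6 in limma (5 unadjusted), where 5.43% of all genes passed. Those lower were Cebpd (-1.29, SE 0.24, limma adjusted p = 0.00276), Cebpb (-0.54, SE 0.09, adjusted p = 0.00104) and Srf (-0.28, adjusted p = 0.0337). For Cebpd and Cebpb the effect differed between strains (-1.84, SE 0.35, adjusted p = 0.00643, and -0.78, SE 0.13, adjusted p = 0.00244). Between controls, BALB minus B6 was 0.35 for Cebpd (adjusted p = 0.38) and 0.06 for Cebpb (adjusted p = 0.736). The lung epithelial factors Foxa1 (-0.19, adjusted p = 0.0929), Foxa2 (0.21, adjusted p = 0.226) and Nkx2-1 (0.05, adjusted p = 0.847) did not pass in BALB.

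On chromosome 6, the 3 measured genes on each side of Cftr were St7, Wnt2 and Asz1 before it and Cttnbp2, Lsm8 and Ankrd7 after it. Only Wnt2, a growth factor of lung mesenchyme, passed for the CF effect in either strain (BALB -0.51, SE 0.14, limma adjusted p = 0.0407, and B6 -0.63, SE 0.15, adjusted p = 0.0184). Lower in CF lungs were 2.66% of all genes in BALB and 1.5% in B6. Wnt2 was also the only neighbour to pass between strains. It was higher in BALB by 0.79 in controls (SE 0.14, limma adjusted p = 0.000313), as were 8.64% of all genes. In CF lungs it was higher by 0.91 (SE 0.15, adjusted p = 0.000123), as were 7.57%. Met, a growth factor receptor gene 5 steps away, read 7.15 to 7.53 in BALB CF lungs, against 8.01 to 8.37 in BALB controls, and 7.18 to 7.65 in B6 CF lungs, against 7.91 to 8.18 in B6 controls. Met thus separated the genotypes without overlap in both strains, B6 included, where the Cftr arrays overlapped. In B6 the arrays did not overlap, CF below control, for 1.11% of all probe sets.

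The genes whose signal ran most like that of Cftr over the 23 arrays were Msl2 (Pearson r = 0.92), Gpr182 (0.91), Rsrp1 (0.88), Tmed8 (0.87), Zfp623 (0.85), Stab1 (0.85), Cert1 (0.83), Pogz (0.83), Chd1 (0.83) and Slc1a1 (0.82). They were the highest of 11634 genes whose mean reached the median over all probe sets, and the arrays share their groups, so these values describe likeness and carry no test. Gpr182, an atypical chemokine receptor of endothelium, read 6.22 to 6.86 in BALB CF lungs, against 6.95 to 7.55 in BALB controls. It read 6.50 to 6.94 in B6 CF lungs, against 6.60 to 6.89 in B6 controls. Stab1, a scavenger receptor of sinusoidal endothelium and macrophages, read 7.02 to 7.22 in BALB CF lungs, against 7.34 to 7.60 in BALB controls. For each of these 10 genes the BALB CF effect had a smaller size than that of Cftr, at most -0.93 (Rsrp1), and none of the 10 lies on chromosome 6.

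Opposite to Cftr ran Ccr2 (r = -0.88), the receptor that brings monocytes to tissue, Apobr (-0.84), Lsp1 (-0.82), Lat2 (-0.82) and Fgr (-0.81). Lsp1, Lat2 and Fgr encode signalling proteins of leukocytes. Ccr2 read 5.07 to 5.31 in BALB CF lungs, against 4.32 to 4.56 in BALB controls, and 5.003 to 5.32 in B6 CF lungs, against 4.79 to 5.21 in B6 controls. Its lowest arrays were thus those of the BALB controls, where Cftr was highest.

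**Figure D4:**
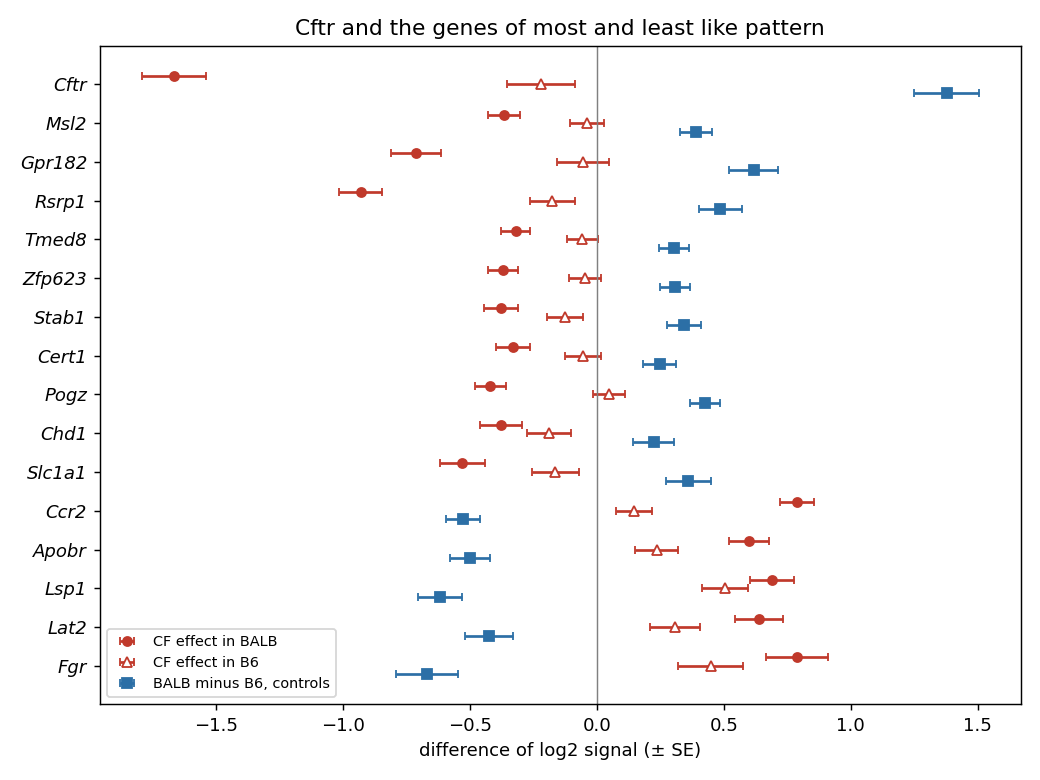
Differences of log2 signal (± SE of the limma fit) for Cftr, the 10 genes of highest and the 5 of lowest correlation with it over the 23 arrays: CF effect in BALB (filled circles), CF effect in B6 (open triangles) and BALB minus B6 controls (squares). Cftr has the largest BALB effect and the largest control difference of the genes shown, -1.67 and 1.38.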

How the data were processed

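The values analysed were the deposited log2 signals of 45101 probe sets on 23 arrays. The scale is inferred from the values, which ran from 1.79 to 13.82. The arrays had a common scale when deposited, and how the authors summarised and normalized the probes is not given in the sources used here. Groups and replicate numbers came from the sample titles. Control probe sets (64) were left out. Gene symbols came from the platform annotation (34945 probe sets with 1 symbol, 932 with several, 9160 with none), and gene order and the promoter from RefSeq of GRCm38.p6.

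Means of the 8 groups were fitted with limma 3.58.1 (lmFit, eBayes) in R 4.3.3, with 15 residual degrees of freedom, after a test on simulated data. P-values were adjusted by Benjamini-Hochberg over all 45037 probe sets, with a threshold of 0.05. For lists, the probe set of highest mean stood for a gene. Exact permutation tests were two-sided, and those given above shuffled arrays over both sexes together. With the sexes kept apart, the exact p of the CF effect by the brighter probe set was 0.005 in BALB and 0.145 in B6. By the dimmer probe set it was 0.01 in BALB and 0.23 in B6. Cftr values are those of the brighter probe set unless stated. The number of arrays limits precision.

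Cftr and the lists were chosen with earlier results of these data known. Named were Cftr, its 3 measured neighbours on each side and Met, up to 3 (BALB) and 2 (B6) list members of lowest p among those that passed, all passing members of the short lists, and the genes of most and least like pattern. Cdx2, Foxi1, Ascl3, Foxa1, Foxa2, Nkx2-1, Slc9a3r1 and Prss8 were added for their known roles or after their values were seen. Alternatives were other scalings, weights, priors, filters, covariates, array subsets, the other probe set, a replicate block and leaving out each array.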

Additional observations from a re-analysis of the deposited data

Results flagged for a closer look

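The CF effect on Cftr differed between the strains by the test of the difference itself: BALB minus B6 was -1.45 (SE 0.18, limma adjusted p = 0.000258) by the brighter probe set. The BALB effect was -1.67 and the B6 effect -0.22, and BALB minus B6 was -0.07 in CF lungs and 1.38 in control lungs. B6 controls already read low, and whether the probe set could read much lower there was not analysed. Met, on the same chromosome, gave -0.82 in BALB and -0.75 in B6 (strain difference -0.07, SE 0.13, adjusted p = 0.864).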

How the results depend on the processing

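Of 412 recomputed values 384 kept their direction and side of the threshold or, for counts of called probe sets, stayed within 1.5 times. The Cftr effect in BALB (-1.75 to -1.58), its strain difference (-1.55 to -1.34) and BALB minus B6 controls (1.32 to 1.43) passed without any 1 array, and the B6 effect (-0.33 to -0.11) never did. By the dimmer probe set the BALB effect (-0.18, adjusted p = 0.0725) and the strain difference (-0.23, adjusted p = 0.15) did not pass, the B6 effect turned to 0.051 and BALB minus B6 in CF lungs to 0.029. The cause was not tested. That last value, -0.07 as reported, was also 0.0043 with array weights, 0.034 with gut, squamous and muscle scores and 1.94e-05 without arrays of high gut score, and ran from -0.18 to 0.040 without 1 array. The sex difference of controls ran from -0.090 to 0.021 without 1 array (0.11 without arrays of high gut score), that of the B6 effect from -0.082 to 0.35 and that of the BALB effect from -0.72 to -0.41. None of these passed in any setting. Probe sets called for the CF effect numbered 2217 in BALB (1368 to 2851 without 1 array, 3824 with array weights, 470 without arrays of high gut score) and 2121 in B6 (852 to 2329). They numbered 1142 for the strain difference (591 to 1568, and 2043 with array weights) and 7016 between controls (5898 to 7309, and 4664 without arrays of high gut score). The lowest B6 and strain-difference counts were those without B6 CF male 1, and the lowest BALB counts those without BALB control female 1 (1368) or control male 1 (1371). With the replicate block, the BALB effect on Cftr was -1.67 (adjusted p = 3.6e-07) and the B6 effect -0.23 (adjusted p = 0.346), and no Cftr call changed. Deviations of same-numbered arrays correlated at -0.19 to 0.35 (77 pairs, median 0.0021). Those of differently numbered arrays correlated at -0.29 to 0.28 (154 pairs, median -0.004). Of the 23 arrays 14 correlated best with 1 of their own number, although same-numbered pairs were the fewer. What the numbers stand for is not given by the labels.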

Other observations

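Within groups, the deviations of Cftr from its 8 group means ran most like those of Sarnp, an RNA export factor (Pearson r = 0.91 over 23 arrays), 0610010F05Rik (0.91), Galnt7, a glycosyltransferase gene (0.91), Taf2, a subunit of the basal transcription factor TFIID (0.91), and Psma3, a proteasome subunit (0.90). None of these 5 genes passed for the CF effect in BALB or in B6. The residual SD of Cftr by the brighter probe set, 0.25, was larger than that of 95.1% of probe sets, whose median was 0.13.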
